A study of Mus musculus with 29 samples.

Results

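The regions described here are binding sites of HA-tagged transcription factors in mouse NIH-3T3 fibroblasts that lay more than 100 kb from every protein-coding transcript start and were held by 1 to 4 constructs. Peaks of duplicate lists were merged for each construct, and touching peaks of the 24 constructs were merged into 168506 sites. Of these, 159066 sites had peaks of 1 to 4 constructs, and 38782 of them (24.4%) had their midpoint more than 100 kb from a start on mm10. These are called far sites below. They were selected on measured peak positions, so their distance, the number of constructs that held them and the share of each construct's sites among them are given as descriptions with no test. The 103530 sites of 1 to 4 constructs between 1 and 100 kb from a start are called nearer sites and serve for comparison. The 16754 sites within 1 kb of a start are left out of it, except where neighbouring sites are counted.

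Enhancers are stretches of DNA that bind sequence-specific transcription factors and raise the activity of a promoter, often across a long distance by looping of the chromatin fibre. Genes that control development are often set in gene deserts, long regions with few genes that hold many of their enhancers. Gene deserts are poor in G and C bases and rich in transposon remnants and simple repeats, which appear in lower case (soft-masked) in the reference genome.

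The study asked how widely factors occupy the genome in interphase. NIH-3T3 lines were infected with lentiviral vectors, expressed the transactivator rtTA3G and carried 1 doxycycline-inducible factor with HA tags at its C-terminus. All cells received doxycycline at 500 ng/ml overnight, fixation was in 1% formaldehyde, and the same anti-HA antibody was used for ChIP-seq of every line. Constructs with 2 peak lists were SOX2-HA, OCT4-HA, BHLHB8-HA and FOXA1-HA. Those with 1 list were BRACHYURY-HA, CDX2-HA, DLX1-HA, DLX6-HA, DUXBL-HA, EBF1-HA, HLF-HA, MAX-HA, NANOG-HA, PRR3-HA, RHOX11-HA, SIX6-HA, SOX15-HA, TEAD1-HA, THAP4-HA, TOX3-HA, ZFP319-HA, the mutants FOXA1_RR-HA and FOXA1_SW-HA, and SOX2-YPET OCT4-HA, in which cells with OCT4-HA also expressed a SOX2-YPet fusion. The factors were overexpressed, most outside the cell type in which they normally act. The 28 lists held between 52 and 61991 peaks, and no read numbers, so the depth behind a list is unknown and differences in depth were not removed.

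The sequences below show far sites that held the recognition sequence of the expressed factor. They were chosen for holding it and are not typical of every construct: only 1.34% of SOX2-YPET OCT4-HA and 5.45% of TEAD1-HA far sites held alone had it in their central 200 bp. For the 10 constructs with a consensus and the most far sites held alone, the far site farthest from any start was taken among those held by that construct alone, with the recognition sequence in the central 100 bp and, for duplicated constructs, a peak in both lists. Each line gives those 100 bp on the plus strand of GRCm38 (mm10), with the recognition sequence in capitals on whichever strand it was read.
BHLHB8-HA, E-box, chr15:46622439-46622538, 1379 kb from the nearest start (Csmd3): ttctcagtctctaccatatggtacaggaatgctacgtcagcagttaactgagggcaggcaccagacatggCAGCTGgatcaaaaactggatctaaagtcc
DUXBL-HA, double homeodomain sequence, chr8:51473218-51473317, 2038 kb from Aga: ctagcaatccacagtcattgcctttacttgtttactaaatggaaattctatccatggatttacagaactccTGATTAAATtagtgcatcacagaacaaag
CDX2-HA, CDX sequence, chr14:90919672-90919771, 2448 kb from Pcdh20: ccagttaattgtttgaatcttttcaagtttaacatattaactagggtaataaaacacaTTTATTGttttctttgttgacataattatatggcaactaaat
TEAD1-HA, TEAD sequence, chr10:55149605-55149704, 957 kb from Msl3l2: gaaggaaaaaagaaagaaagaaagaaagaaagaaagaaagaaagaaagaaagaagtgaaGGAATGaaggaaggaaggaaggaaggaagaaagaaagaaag
SOX2-HA, SOX sequence, chr8:101341293-101341392, 1444 kb from Cdh11: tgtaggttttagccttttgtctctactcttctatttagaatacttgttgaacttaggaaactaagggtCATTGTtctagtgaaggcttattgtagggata
SOX2-YPET OCT4-HA, octamer, chr15:17785780-17785879, 1008 kb from Cdh9: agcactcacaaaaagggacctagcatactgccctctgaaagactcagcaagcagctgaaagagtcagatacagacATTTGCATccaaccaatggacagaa
DLX6-HA, homeodomain sequence, chr1:102482876-102482975, 2286 kb from Cdh20: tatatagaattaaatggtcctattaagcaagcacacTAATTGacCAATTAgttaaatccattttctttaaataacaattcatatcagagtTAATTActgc
DLX1-HA, homeodomain sequence, chr5:55939343-55939442, 1779 kb from Pcdh7: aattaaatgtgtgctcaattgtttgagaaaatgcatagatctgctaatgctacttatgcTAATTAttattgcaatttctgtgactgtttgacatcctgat
SIX6-HA, TGATAC sequence, chr15:46821859-46821958, 1180 kb from Csmd3: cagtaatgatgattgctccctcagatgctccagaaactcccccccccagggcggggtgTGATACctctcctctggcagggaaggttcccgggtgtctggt
FOXA1-HA, forkhead sequence, chr1:77695470-77695569, 180 kb from Epha4: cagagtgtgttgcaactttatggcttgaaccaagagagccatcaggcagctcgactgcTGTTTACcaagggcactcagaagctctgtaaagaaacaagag
The DLX6-HA site held 3 matches in an intron of Gm3116, and the other 9 sites held 1 match each and lay between annotated genes. The TEAD1-HA window was a run of short purine repeats, and all of its central 200 bp was soft-masked, as was that of the SOX2-YPET OCT4-HA site.

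Far sites were found for 23 of the 24 constructs, and the shares differed widely between them. Most of them came from a few constructs: a peak of BHLHB8-HA, DUXBL-HA or CDX2-HA was present at 27481 far sites (70.9%). BHLHB8 (also named MIST1) is a basic helix-loop-helix factor of secretory cells, DUXBL is a double homeodomain factor of the germ line and early embryo, and CDX2 is a homeodomain factor of the intestine and trophoblast. BHLHB8-HA had 13128 far sites, DUXBL-HA 8284 and CDX2-HA 6588. As a share of a construct's own sites of 1 to 4 constructs the order changed. The co-expression list SOX2-YPET OCT4-HA stood highest with 41.2% (exact 95% interval 39.8 to 42.6), followed by DUXBL-HA with 39.4% (38.8 to 40.1). CDX2-HA had 29.2%, SOX15-HA 27.4%, DLX6-HA 26.9% and SOX2-HA 25.5%. The lower end held BHLHB8-HA with 17.8%, ZFP319-HA with 17.4%, TEAD1-HA with 16.8%, MAX-HA with 11.4% (9.88 to 13.0) and EBF1-HA with 9.39% (8.54 to 10.3). DLX1-HA and DLX6-HA, homeodomain factors of the same family, differed with 17.9% (17.2 to 18.6) and 26.9% (26.1 to 27.7). These intervals cover counting error over sites, and not the error between libraries. The shares count sites within 1 kb of a start in the denominator, and the order of constructs depends in part on them. Such sites were 6303 of 14296 for TEAD1-HA and 1676 of 3335 for RHOX11-HA (far share 22.5%), but 472 of 22558 for CDX2-HA.

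Bases more than 100 kb from a protein-coding start make up 39.8% of the known mm10 genome (1054 Mb). Among the 16 constructs with at least 1000 sites of 1 to 4 constructs, the far share ran from 9.39% to 41.2% with a median of 22.8%. SOX2-YPET OCT4-HA (41.2%) and DUXBL-HA (39.4%) stood close to the genome share, and CDX2-HA came next with 29.2%. This comparison was not tested. The other 8 constructs had under 1000 such sites each. TOX3-HA, an HMG-box factor, had 15 far sites of 466 (3.22%), BRACHYURY-HA 35 of 91 and NANOG-HA 15 of 40. FOXA1_RR-HA had 5 of 14, FOXA1_SW-HA 4 of 18, THAP4-HA 3 of 14 and PRR3-HA 2 of 2. OCT4-HA had 0 of 7, which allows a share of up to 41.0%.

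**Figure D1:**
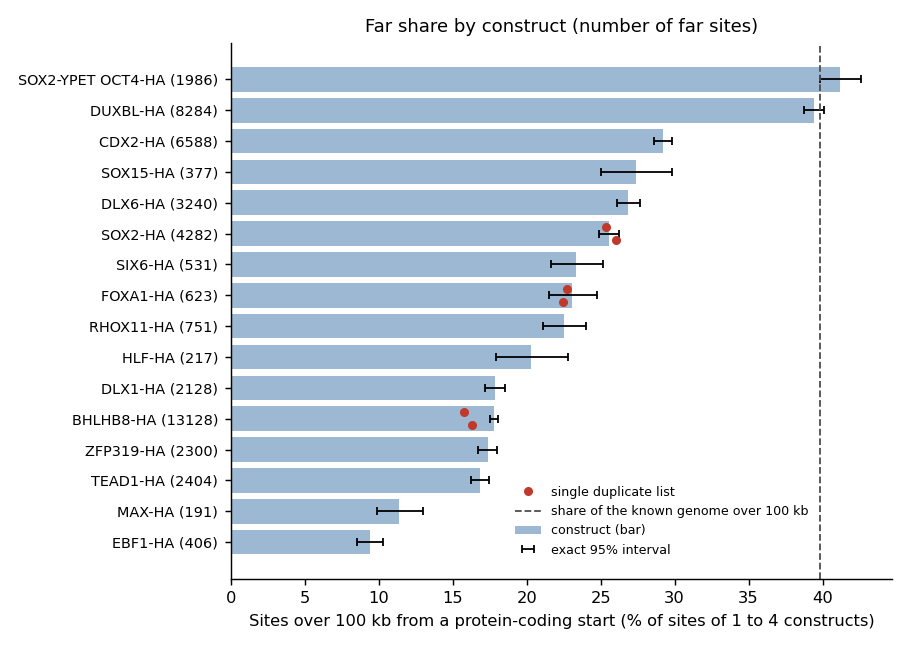
Share of each construct's sites of 1 to 4 constructs that lay over 100 kb from a protein-coding start, for the 16 constructs with at least 1000 such sites. Bars are constructs, with the number of far sites in brackets and exact 95% intervals, red points are the single lists of duplicated constructs, and the dashed line at 39.8% is the share of the known genome. SOX2-YPET OCT4-HA and DUXBL-HA stand closest to the line. The intervals cover counting over sites only, and sites within 1 kb of a start are part of the denominator.

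Duplicate lists that differed in length were compared for their far share. Peaks of BHLHB8-HA at sites of 1 to 4 constructs were far in 15.7% of 37653 cases in replicate 1 and 16.3% of 55827 in replicate 2. For FOXA1-HA the values were 22.7% of 2559 and 22.5% of 334, and for SOX2-HA 25.3% of 16492 and 26.1% of 2567. OCT4-HA replicate 2 had no peak at a site of 1 to 4 constructs, so this construct could not enter. The mean difference between duplicates was 0.515 percentage points. As a share of all peaks of a list, which adds peaks at sites of 5 or more constructs and OCT4-HA, it was 2.44 points. For the first measure the pooled SD between duplicates was 0.385 percentage points (n = 3 constructs), and no such error can be given for the 20 constructs with a single list.

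Far sites extended to long distances from protein-coding starts. Their median distance to a start was 225 kb, with quartiles of 146 and 399 kb, and 7031 of them (18.1%) lay more than 500 kb away. Over all constructs there were 36.8 far sites per Mb of far genome and 67.7 nearer sites per Mb between 1 and 100 kb, a ratio of 1.84. Density fell with distance, from 75.02 sites per Mb at 1 to 10 kb and 58.1 at 50 to 100 kb to 45.2 at 100 to 250 kb, 33.7 at 250 to 500 kb and 25.8 beyond 500 kb.

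Most constructs shared this decline, to different extents. EBF1-HA, a factor of B cell and fat cell differentiation, went from 2.81 sites per Mb at 1 to 10 kb to 1.26 at 50 to 100 kb and 0.0550 beyond 500 kb, where 15 sites remained. BHLHB8-HA went from 36.2 to 26.6 and 4.83 sites per Mb. For 3 constructs the density beyond 500 kb stayed closer to that at 50 to 100 kb than for the other 13. DUXBL-HA had 7.72 sites per Mb at 1 to 10 kb, 8.23 at 50 to 100 kb, 7.68 at 100 to 250 kb and 8.02 beyond 500 kb. RHOX11-HA, a homeodomain factor of the reproductive tract, had 0.537, 0.614, 0.732 and 0.741 sites per Mb in the same classes, and SOX2-YPET OCT4-HA had 1.44, 1.81, 2.18 and 1.52. TEAD1-HA, a factor that acts with the Hippo pathway coactivators, had 4.30, 3.06, 2.45 and 2.09. Within 1 kb of a start RHOX11-HA and TEAD1-HA had 25.9 and 97.6 sites per Mb.

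**Figure D2:**
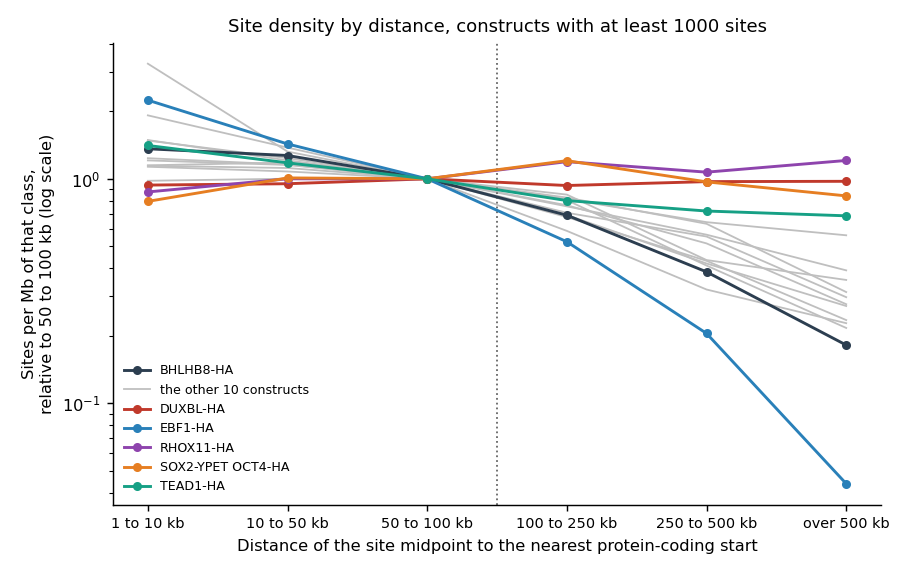
Sites of 1 to 4 constructs per Mb of genome in each distance class, divided by the value at 50 to 100 kb, on a log axis, with 1 line for each of the 16 constructs with at least 1000 sites. The dotted line marks 100 kb. Beyond 500 kb RHOX11-HA stands at 1.21, DUXBL-HA at 0.975 and SOX2-YPET OCT4-HA at 0.839, and EBF1-HA is lowest at 0.0439.

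The limit of 100 kb cut through a continuous distribution. Just inside it, at 100 to 110 kb, lay 2588 far sites, and just outside, at 90 to 100 kb, lay 3036 sites. The median GC content of these was 45.5% and 45%, and the mean soft-masked share 24.9% and 24.2%. The limit of 4 constructs was similar: 976 far sites were held by 4 constructs and 683 sites beyond 100 kb by 5, with a median GC content of 44% and 44.5% and a mean soft-masked share of 14.8% and 13.7%.

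Most far sites belonged to a single construct. Of the 38782, 33398 (86.1%) were held by 1 construct, 3011 by 2, 1397 by 3 and 976 by 4, while 82.4% of nearer sites were held by 1. In each distance class from 1 kb outwards the share held by 1 construct was higher, from 81.9% at 1 to 10 kb to 91.1% beyond 500 kb. Far sites of several constructs looked different from those of 1. The AP-1 sequence TGACTCA or TGAGTCA, which recruits Fos and Jun family dimers to fibroblast enhancers, was present in the central 200 bp of 7.003% of far sites held by 1 construct, 16.9% held by 2, 25.3% held by 3 and 25.6% held by 4. In nearer sites the values were 7.57%, 17.6%, 23.5% and 25.3%, and 2.89% of all 200-bp genome tiles beyond 100 kb held the sequence. The mean soft-masked share of far sites fell from 30.1% for 1 construct to 14.8% for 4, while the median GC content was 42% and 44%. The median width went from 270 to 587 bp, but joining touching peaks in itself widens sites of several constructs.

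Averaged over all sites, GC content at far sites followed that of the genome at the same distance while staying above it. Sites of single constructs could lie below their surroundings, as given below for CDX2-HA and DUXBL-HA. The central 200 bp had a mean GC content of 43.9% at 100 to 250 kb, 41.8% at 250 to 500 kb and 39.1% beyond 500 kb, and all genome tiles of these classes had 40.7%, 39.4% and 37.7%. The mean soft-masked share of sites was 25.4%, 29.2% and 37.3%, and that of tiles 38.6%, 41.7% and 43.7%. In the 3 classes between 1 and 100 kb the soft-masked share of sites was 23.9% to 24.4%. Of all far sites, 23.2% were more than 50% soft-masked and 29.1% held no soft-masked base, against 18.6% and 32.9% of nearer sites.

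**Figure D3:**
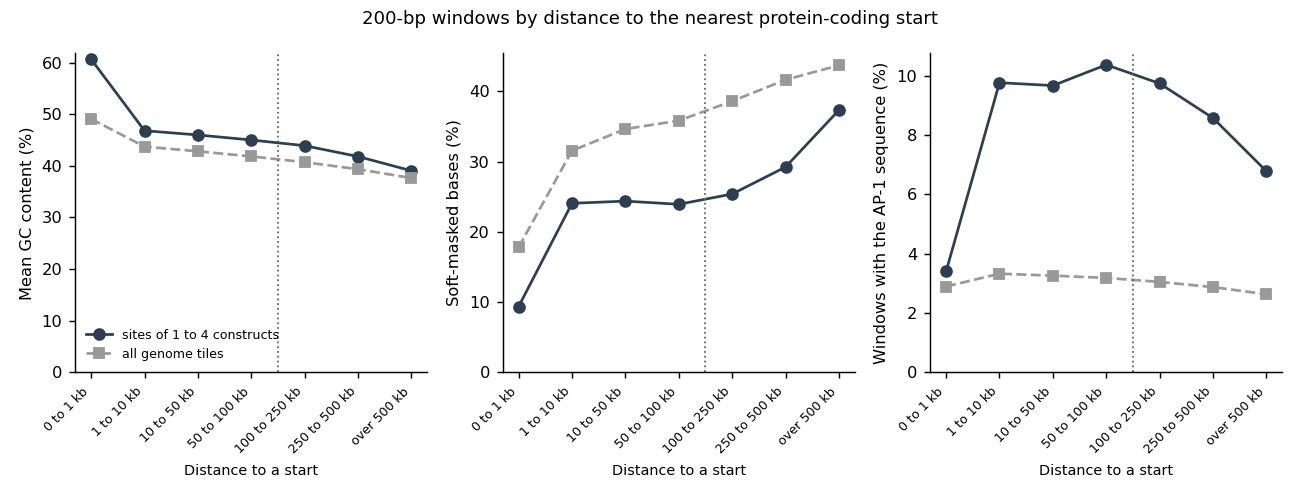
Mean GC content, soft-masked share and share of windows with the AP-1 sequence in the central 200 bp of sites of 1 to 4 constructs (filled circles) and in all 200-bp tiles of the genome (grey squares), by distance class. The dotted line marks 100 kb. Beyond it the soft-masked share of sites climbs from 25.4% to 37.3%, nearing the 43.7% of the tiles beyond 500 kb.

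Far and nearer sites were then compared within constructs, so that the mix of constructs could not enter. Only sites held by 1 construct were used, and the 16 constructs with at least 50 of them in each class gave 33361 far sites. Differences over constructs were tested with a two-sided sign-flip permutation test, with p-values adjusted over 8 measures. The median GC content was lower at far sites in 13 of 16 constructs, by a mean of -1.97 percentage points (SD 2.22), from 45.1% to 43.1% (permutation adjusted p = 0.00983). DLX6-HA had 33.5% at far and 40% at nearer sites and TEAD1-HA 39.5% and 46%, the widest differences. It was higher at far sites for MAX-HA (40.5% against 39%) and SOX15-HA (49.5% against 49%), and SOX2-YPET OCT4-HA had 50% in both classes. The genome itself differed in the same direction: all tiles had a mean GC content of 39.5% beyond 100 kb and 42.8% at 1 to 100 kb. GC content relative to windows 5 kb on either side was higher at far sites in 14 of 16 constructs, with means of 3.06 and 1.61 percentage points (permutation adjusted p = 0.00983). For some of these, far sites lay below their flanks, only less so than nearer sites. CDX2-HA had -5.5 against -6.25 and DUXBL-HA -1 against -1.5, while BHLHB8-HA had 7.5 against 6. The value was lower at far sites for DLX6-HA, at -4.75 against -3.50, and for TEAD1-HA, at 0.25 against 2.25. The shortest peak in a list differed between libraries, so the constructs were also split by its length. In the 8 constructs whose shortest peak was at or under the median of 171 bp, the GC difference was -2.19 (exact permutation p = 0.00781), and in the other 8 it was -1.75 (exact permutation p = 0.109). For GC content relative to flanks the difference was 1.42 and 1.48 in the same groups of 8 (exact permutation p = 0.0625 and 0.0547).

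The soft-masked share was higher at far sites in 11 of 16 constructs, with means of 29.7% and 25.7% (difference 4.04, SD 6.30, permutation adjusted p = 0.0349). TEAD1-HA had 73.9% at far and 57.7% at nearer sites, SIX6-HA 31.6% and 19.8%, RHOX11-HA 37.1% and 25.5%, and SOX2-YPET OCT4-HA 41.8% and 30.4%. DLX1-HA went the other way with 14.9% and 21.5%. All genome tiles also had a higher soft-masked share beyond 100 kb, at 40.8% against 34.1% at 1 to 100 kb. Without TEAD1-HA and ZFP319-HA, the constructs with most soft-masked bases, the difference was 3.33 (permutation adjusted p = 0.0877), and without SOX2-YPET OCT4-HA it was 3.55 (permutation adjusted p = 0.0697), so the call did not hold without them. In the groups of 8 by shortest peak it was 3.29 (exact permutation p = 0.180) and 4.79 (exact permutation p = 0.0859). Relative to the flanks, the mean difference in soft-masked share was -5.78 percentage points at far and -5.37 at nearer sites, and no difference between these was detected (permutation adjusted p = 0.778). Far sites of TEAD1-HA, ZFP319-HA and SOX2-YPET OCT4-HA lay above their flanks, by 39.6, 35.8 and 1.94 percentage points.

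Far sites were slightly narrower. The median width was lower at far sites in 12 of 16 constructs, with means of 237 and 244 bp (permutation adjusted p = 0.00983). For MAX-HA it was 236 and 263 bp, and for BHLHB8-HA 287 and 308 bp. The difference was -7.38 bp and -6.31 bp in the groups of 8 by shortest peak (exact permutation p = 0.0547 and 0.0938).

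**Figure D4:**
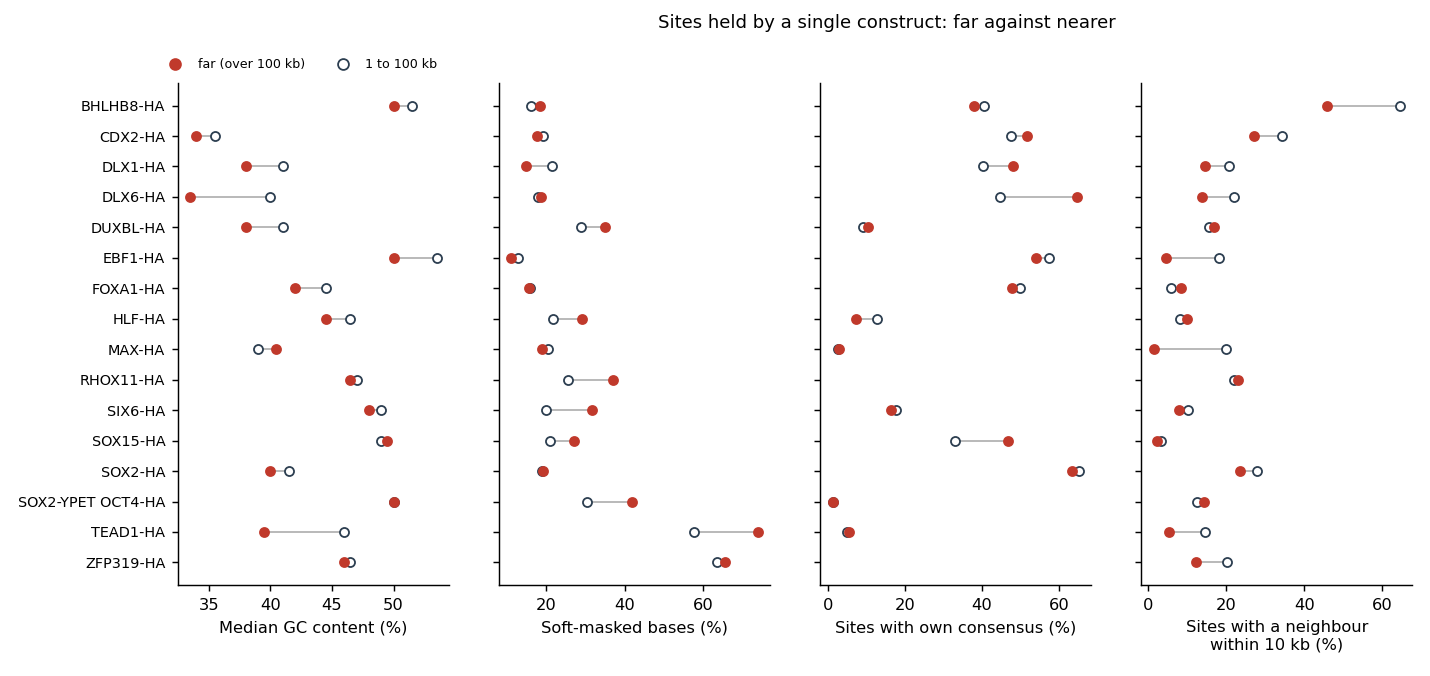
Far (red) and nearer (open) values of the 16 constructs, for sites held by a single construct, with the median GC content, the mean soft-masked share, the share of sites with the construct's own consensus (14 constructs) and the share with another site of the same construct within 10 kb. GC content is lower at far sites in 13 constructs and the share with a neighbour in 11.

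Far sites of TEAD1-HA and ZFP319-HA were largely repeats. ZFP319 is a zinc finger protein of unknown recognition sequence, and AGAGAGAG or its complement CTCTCTCT was present in 1916 of its 1980 far sites held alone (96.8%), 96.4% of 8171 nearer sites and 4.12% of windows 5 kb away. Of all tiles beyond 100 kb 3.60% held it. For TEAD1-HA the word with the largest excess over the flanks was GAAAGAAA or TTTCTTTC, in 45.2% of 2277 far sites (exact 95% interval 43.2 to 47.3), 26.6% of 5012 nearer sites (25.4 to 27.9), 4.59% of flanking windows and 4.96% of far tiles. The purine run of the TEAD1-HA sequence printed above is of this kind. These words were found in the same far sites, as the 8-letter words with the largest excess, so their shares at far sites are a description.

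The words below were likewise picked for their excess at the far sites. For DUXBL-HA the leading word was ACCCAATC (or GATTGGGT), in 1911 of 7776 far sites held alone (24.6%, interval 23.6 to 25.5), 17.4% of nearer sites and 0.521% of flanking windows. Of far and nearer tiles, 0.657% and 0.505% held it. CDX2-HA far sites led with TAATAAAA, in 23.96% of 5842 sites against 17.3% of nearer sites, 4.26% of far tiles and 3.06% of nearer tiles. DLX6-HA led with TAATTATA, in 17.2% of 947 far and 7.83% of nearer sites, and so did DLX1-HA, with 11.5% and 5.42%. TAATTATA was in 1.61% of far and 1.11% of nearer tiles. For SOX2-HA the word was ATGAGTCA, which contains the AP-1 sequence, in 9.70% of far and 8.58% of nearer sites. The leading words of SOX2-YPET OCT4-HA and RHOX11-HA were in 8.09% and 6.05% of their far sites. The following windows, chosen after the values were seen, show the farthest sites of DUXBL-HA and ZFP319-HA held alone that had these words (capitals) in the central 100 bp, on the plus strand of GRCm38.
DUXBL-HA, chr14:91245163-91245262, 2641 kb from Pcdh9, between genes: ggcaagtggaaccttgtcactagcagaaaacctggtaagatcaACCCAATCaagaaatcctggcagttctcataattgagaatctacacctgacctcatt
ZFP319-HA, chr1:102798747-102798846, 1970 kb from Cdh20, between genes: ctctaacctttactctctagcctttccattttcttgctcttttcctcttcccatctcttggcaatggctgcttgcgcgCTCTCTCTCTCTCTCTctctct
The DUXBL-HA site is also the far site farthest from any start. None of its central 200 bp was soft-masked, while 85.5% of the ZFP319-HA window was.

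No difference in the recognition sequence of the expressed factor was detected between far and nearer sites. Over 14 constructs with a consensus the mean share was 32.7% at far and 30.5% at nearer sites (difference 2.21, SD 7.06, permutation adjusted p = 0.395), higher at far sites in 8 and lower in 6. DLX6-HA had TAATTA or CAATTA (either strand) in 64.7% of far sites (interval 61.6 to 67.8) and 44.8% of nearer sites, and DLX1-HA in 47.9% and 40.4%. These AT-rich words were also more frequent in the genome beyond 100 kb, in 18.8% of far and 14.5% of nearer tiles. SOX2-HA had ACAAAG or ACAATG in 63.3% and 65.2%, CDX2-HA CCATAAA or CAATAAA in 51.6% and 47.5%, and EBF1-HA CCCNNGGGA in 54.1% and 57.3%. BHLHB8-HA had the E-box CAGCTG in 38.0% (interval 37.0 to 39.0) and 40.4%, although this word is rarer beyond 100 kb, in 5.83% of far and 7.93% of nearer tiles. FOXA1-HA had TGTTTAC or TATTTAC in 47.7% and 49.8%.

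Compared with windows 5 kb away, far sites of 10 of the 14 constructs held the consensus more often, with intervals clear of the flank value. This count is a description and not a test. The intervals cover counting over sites, mostly of 1 library. They take the flank share as fixed, though it came from only 222 windows for EBF1-HA and 162 for HLF-HA. SOX2-HA had 30.8% in flanks, CDX2-HA 10.4%, BHLHB8-HA 7.59%, FOXA1-HA 7.39% and EBF1-HA 2.70%. DUXBL-HA had TGATTNAAT in 10.4% of far sites and 1.24% of flanks, and SIX6-HA TGATAC in 16.4% and 7.53%. HLF-HA had TTACGTAA or TTATGTAA in 6 of 81 far sites (7.41%, interval 2.77 to 15.4) and 1.21% of far tiles. For SOX15-HA (46.7%, interval 36.1 to 57.5, flanks 37.2%) and MAX-HA (CACGTG in 2 of 70 far sites, flanks 3.57%) the interval included the flank value. TEAD1-HA and SOX2-YPET OCT4-HA lay below their flanks. CATTCC was present in 5.45% of TEAD1-HA far sites (4.55 to 6.46) against 11.5% of flanks, and the octamer ATGCAAAT or ATGCTAAT in 18 of 1347 SOX2-YPET OCT4-HA far sites (1.34%, 0.794 to 2.104) against 3.64% of flanks.

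**Figure D5:**
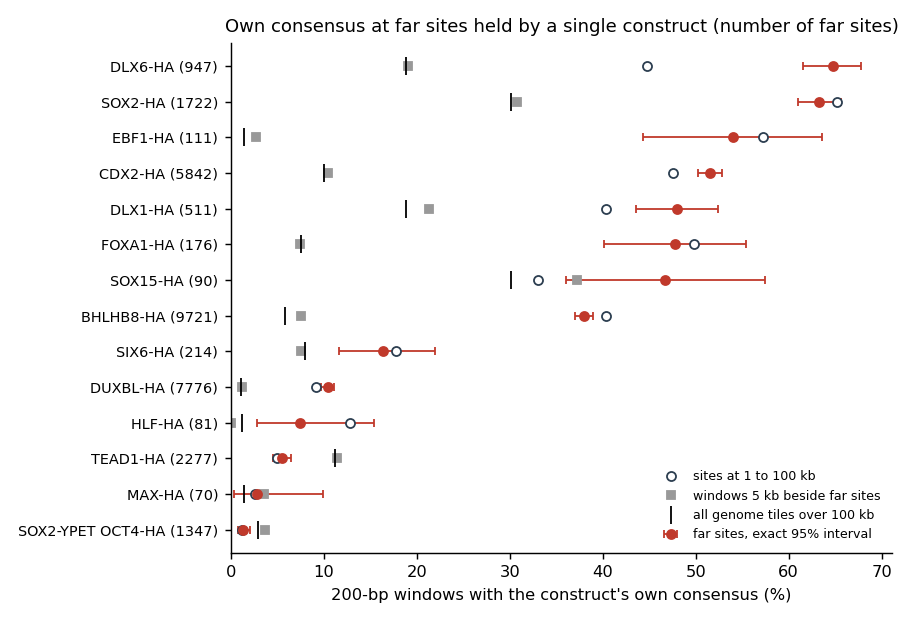
Share of 200-bp windows with the construct's own consensus at far sites held by that construct alone (red, exact 95% interval over sites), at nearer sites (open), in windows 5 kb beside the far sites (grey squares) and in all genome tiles beyond 100 kb (ticks). Far values run from 1.34% for SOX2-YPET OCT4-HA to 64.7% for DLX6-HA.

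For the AP-1 sequence no difference was detected between far and nearer sites either. Its mean share was 10.3% at far and 10.8% at nearer sites (difference -0.548, SD 4.24, permutation adjusted p = 0.703), higher at far sites in 6 constructs and lower in 10. The constructs themselves differed: 25.6% of SOX2-HA far sites, 20.7% of EBF1-HA, 19.9% of FOXA1-HA and 19.2% of DLX1-HA far sites held it, against 1.19% of TEAD1-HA, 2.42% of RHOX11-HA and 3.93% of SOX2-YPET OCT4-HA far sites. The RUNX sequence AACCACA, bound by runt-domain factors of bone and fibroblast lineages, was in 12.3% of SOX2-HA and 10.3% of SIX6-HA far sites and 4.28% of far tiles. The word CCACNAGNG, the core of the CTCF sequence, was in 0.657% to 5.11% of far sites of the 15 constructs that had any, against 1.74% of far tiles, and in 0 of 70 MAX-HA far sites, which allows a share of up to 5.13%.

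Far peaks were recovered less often in the duplicate list than nearer peaks, in all 3 constructs that could be tested. Peaks of the shorter list overlapped the longer list by at least 1 bp in 31.2% of 5930 far and 47.3% of 24503 nearer peaks of BHLHB8-HA. The values were 41.3% of 75 and 61.5% of 231 for FOXA1-HA, and 83.4% of 669 and 88.3% of 1813 for SOX2-HA. The mean difference was -13.7 percentage points, with an exact two-sided sign-flip permutation p = 0.25, which is the smallest that 3 constructs allow. The size of this difference depended on the definition: it was -4.47 when peaks of the longer list were looked up in the shorter one, and -8.74 and -21.9 with the limit at 50 and 200 kb.

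The lists of BHLHB8-HA differed in their far sites. Replicate 1 alone held 4054 far sites, replicate 2 alone 7246, and both lists 1828. The E-box was in 34.4% of the first (interval 33.0 to 35.9), 33.3% of the second (32.2 to 34.4) and 44.2% of the shared sites (41.9 to 46.5). The median GC content was 43.0% in replicate 1 alone and 51.5% in replicate 2 alone, the mean soft-masked share 14.4% and 22.8%, and the share with the AP-1 sequence 13.7% and 4.76%. SOX2-HA far sites in both lists held the SOX sequence in 74.7% of 557 cases, and those of replicate 1 alone in 51.1% of 3615. Of the 44 FOXA1-HA far sites of replicate 2 alone, 2 held the forkhead sequence, against 37.2% of the 548 of replicate 1 alone and 41.9% of the 31 in both.

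The co-expression list shared far peaks mostly with 1 BHLHB8-HA list and hardly with any list of its own factors. Of its 1987 far peaks, 535 (26.9%) overlapped BHLHB8-HA replicate 2 and 28 (1.41%) overlapped replicate 1. With SOX2-HA the overlap was 7 peaks in replicate 1 and 2 in replicate 2, and with OCT4-HA it was 0 in both. The same imbalance held at nearer peaks, of which 28.3% overlapped BHLHB8-HA replicate 2 and 2.28% replicate 1. Counted as sites, the list shared 539 far sites with BHLHB8-HA, 99 with RHOX11-HA and 64 with SIX6-HA. Part of this lay in the dense block on chromosome 5 described below, where BHLHB8-HA and the list both held 19.4% of 1182 far sites. The high far share of the co-expression list and the results above that include it rest on 1 library with this overlap. Its part in the results was not tested beyond the values given without this list.

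Far sites of 2 to 4 constructs brought together a small set of factors. Most of these pairs shared nearer sites to a similar or greater extent. DLX6-HA and SOX2-HA shared 1480 far sites, which were 45.7% of the DLX6-HA and 34.6% of the SOX2-HA far sites. At nearer sites these shares were 48.3% and 31.7%. BHLHB8-HA shared 1305 with SOX2-HA (30.5% of those of SOX2-HA and 9.94% of its own), 1258 with DLX6-HA (38.8% and 9.58%) and 976 with DLX1-HA (45.9% and 7.43%). Of the nearer sites of SOX2-HA, DLX6-HA and DLX1-HA, 38.8%, 51.7% and 64.9% were shared with BHLHB8-HA. DLX1-HA and DLX6-HA shared 776, which were 36.5% and 23.95% of their far sites, against 29.2% and 28.8% of their nearer sites. SOX15-HA shared 230 of its 377 far sites (61.0%) with SOX2-HA, a factor of the same family, and 79.1% of its nearer sites. DUXBL-HA and CDX2-HA far sites were mostly their own, with 93.9% and 88.7% held by that construct alone. Those of TEAD1-HA were too, with 94.7%. Among sites of at most 4 constructs that were not far, those next to starts included, the shares were 83.8%, 86.4% and 65.2%. Of the DLX1-HA, SOX15-HA and EBF1-HA far sites, 24.01%, 23.9% and 27.3% were held alone. Of their sites that were not far, 13.1%, 12.4% and 26.8% were. For CDX2-HA and EBF1-HA the far share was thus close to that of their other sites. These differences were not tested.

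Single-construct far sites had fewer neighbours of the same construct. The share with another site of that construct within 10 kb was lower at far sites in 11 of 16 constructs, with means of 14.4% and 20.05% (difference -5.62, SD 6.97, permutation adjusted p = 0.00983). The difference was -2.22 for neighbours within 2 kb (permutation adjusted p = 0.00586) and -10.4 within 50 kb (permutation adjusted p = 0.00983). Neighbours included sites within 1 kb of a start, which no far site can have at these distances. The classes therefore did not have the same chance of a neighbour. With nearer sites limited to 10 to 100 kb, the difference within 10 kb was -3.83 (permutation adjusted p = 0.0253). In BHLHB8-HA the share within 10 kb was 45.8% at far and 64.6% at nearer sites, in MAX-HA 1.43% and 19.96%, and in EBF1-HA 4.50% and 18.2%. It was higher at far sites in 5 constructs by at most 2.59 points (FOXA1-HA, 8.52% and 5.94%), among them DUXBL-HA with 16.8% and 15.7%. The difference was -5.57 and -5.67 in the groups of 8 by shortest peak (exact permutation p = 0.0391 and 0.109). The lower site density beyond 100 kb moves with this share, and its part in it was not tested. Counting sites of any construct, 68.9% of far and 83.6% of nearer sites had another site of 1 to 4 constructs within 10 kb, and the median distance to the closest was 5.13 and 3.24 kb.

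Even so, far sites formed dense groups. They fell in 9120 windows of 100 kb with a median of 3 per window, and the 874 windows with at least 10 held 31.0% of them. The densest 15 windows, with up to 43 far sites, all lay on chromosome 5 between 3 and 11 Mb. The 5 densest were chr5:4900001-5000000 with 43 far sites of 14 constructs, chr5:10000001-10100000 with 41, chr5:6400001-6500000 with 40, and chr5:4300001-4400000 and chr5:7000001-7100000 with 39 each, a number that chr5:7100001-7200000 also reached. Their nearest genes were Fzd1, Gm5152, Zfp804b, Mterf1b and again Zfp804b. This block held 1182 far sites at 327 per Mb of far genome, 9.05 times the density on the rest of the chromosome, and its nearer sites were as dense at 324 per Mb. The block held 31.8% of the RHOX11-HA far sites, 25.3% of those of HLF-HA, 17.0% of SOX2-YPET OCT4-HA and 16.2% of SIX6-HA. It held 1.54% of those of DUXBL-HA and 1.49% of SOX2-HA, which were also dense there. Their densities were 3.64 and 5.07 times those on the rest of chromosome 5, and 15 of 16 constructs had a ratio above 1.5. Leaving the block out did not end a call among the 8 comparisons of far with nearer sites, and the clustering difference was then -6.58 (permutation adjusted p = 0.00391). This region was set after seeing the data.

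Outside that block, the densest megabases of far sites lay near Sox9 on chromosome 11 (157 far sites between 112 and 113 Mb) and around Myc on chromosome 15 (138 and 135 far sites between 61 and 63 Mb). Far site density also differed between chromosomes. Chromosome 15 had 89.6 far sites per Mb of far genome, chromosome 19 63.1 and chromosome 1 62.7, while chromosome 14 had 13.8, chromosome X 4.34 and chromosome Y 0.0672. These densities count all known bases, also those where reads do not align uniquely. Nearer sites followed, with 119 per Mb on chromosome 15, 40.8 on chromosome 14 and 11.4 on chromosome X. The ratio of far to nearer density ran from 0.339 on chromosome 14 to 0.817 on chromosome 13 among the autosomes.

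In the GENCODE vM21 annotation, 25296 far sites (65.2%) had their midpoint in no gene, 8831 (22.8%) in an intron of a protein-coding gene and 4300 (11.1%) in another annotated gene only. For nearer sites the shares were 38.4%, 48.4% and 6.64%. An annotated exon held 820 far sites (2.11%), and 1163 (3.00%) lay within 1 kb of a noncoding transcript start. Only 8036 sites of 1 to 4 constructs were more than 100 kb from the start of every transcript, noncoding ones included. Far sites inside genes were found in long ones, with 128 in Cdk14 (617 kb), a cyclin-dependent kinase gene in the dense block, 98 in Macrod2 (1998 kb), 89 in Zfp804b (576 kb), 87 in Csmd3 (1211 kb) and 79 in Pard3b (1003 kb).

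The 10 protein-coding genes nearest to the most far sites mixed developmental regulators with neuronal genes. Zfp804b, a zinc finger gene in the chromosome 5 block (chr5:6769010-7344756), came first with 277 far sites. Csmd3 had 235 and Cdh9, a cadherin gene, 201. They were the nearest genes to 2.85 and 2.60 Mb of far genome, and their densities were 82.4 and 77.4 far sites per Mb, with DUXBL-HA as the leading construct. Sox9 (chr11:112782224-112787760), which drives cartilage formation and has long-range enhancers in limb and face, had 198 far sites at 189 per Mb, 5.12 times the mean of 36.8 over all far genome, reaching to 847 kb. Myc (chr15:61985391-61990374), a regulator of growth, had 190 at 153 per Mb. BHLHB8-HA led at both, with 77 and 73 far sites. Trps1, a GATA-type factor of skeletal development, had 171 at 131 per Mb. Csmd3, Cdh9, Myc and Trps1 all lie on chromosome 15, which had 89.6 far sites per Mb, so Csmd3 and Cdh9 were below the mean of their chromosome. Chromosome 11, with Sox9, had 55.4. Dsel, an enzyme of dermatan sulfate synthesis, had 165, Cntnap5b 151, Cntnap5a 148, and Zeb2, a regulator of epithelial-mesenchymal transition, 147.

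Far sites were counted for 4 gene lists by the gene nearest to them and set against the far bases nearest to the same genes. Over all protein-coding genes, 3900 were nearest to some far bases, and 3002 of these to at least 1 far site. Of the 3900, 1783 (45.7%) had a density above the mean, which is the share to read the counts below against. Mesenchyme and fibroblast regulators had 1360 far sites in 15.3 Mb, 89.1 per Mb or 2.42 times the mean, and 28 of 34 members with far bases were above the mean. Besides Sox9, Myc and Zeb2, Klf4 had 90 far sites at 179 per Mb and Sox5 83 at 125. Matrix and secreted fibroblast genes had 64.8 per Mb (1.76 times), with 26 of 35 members above the mean. Has2, which makes hyaluronan, had 74 at 154 per Mb, the protease gene Adamts5 60, the matrix genes Tnc 42 and Thbs1 36, and the ligand gene Angpt1 32. Limb, heart and craniofacial patterning genes had 44.6 per Mb (1.21 times), with 19 of 35 above the mean. Tbx3 had 50 far sites, Irx1 38, Sall3 31, Tbx18 27 and Tfap2b 26. Neuronal adhesion and synaptic genes had 2157 far sites, the most of any list, but in 72.2 Mb, which gave 29.9 per Mb (0.812 times), with 15 of 44 above the mean. Csmd3, Cdh9, Cntnap5b and Cntnap5a led this list, followed by Adgrl3 with 135. The median over all 3900 genes was 31.6 per Mb, and the nearest gene need not be the one a site acts on. Far site density differed between chromosomes, and the list values were not adjusted for the chromosomes of their members.

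The extremes of the set were as follows. The 3 far sites farthest from any start lay on chromosome 14, nearest to Pcdh9 or Pcdh20, genes for protocadherins of the nervous system. They were DUXBL-HA sites at chr14:91245100-91245325 (2641 kb) and chr14:91426268-91426531 (2459 kb) and the CDX2-HA site at chr14:90919580-90919864 (2448 kb), whose GC content was 43.5%, 40.5% and 23%. The widest far site, 2427 bp at chr11:8466327-8468753, lay in an intron of Tns3 and was held by BHLHB8-HA, DLX1-HA, EBF1-HA and HLF-HA. The next, 1769 bp at chr17:83953949-83955717 between genes near Haao, was held by BHLHB8-HA, DLX1-HA, EBF1-HA and SOX2-HA. The third, 1764 bp at chr13:84358347-84360110 near Tmem161b, was held by TEAD1-HA alone, and its central 200 bp was soft-masked throughout.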

How the data were processed

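The authors aligned paired-end reads to mm10 with STAR 2.5.3a, removed duplicates with Picard, called peaks for each sample with MACS2 2.1.1.20160309 and dropped those falling on input peaks or on the ENCODE blacklist (tools and versions from the submitters' processing notes). The deposited lists hold peak positions only (chromosome, start, end), with no score or read count, so depth is unknown. All coordinates fell within GRCm38 chromosomes, and printed ones count from 1. Input chromatin was not used here.

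Transcript starts came from GENCODE vM21, and base composition and soft-masking from GRCm38.p6, in the central 200 bp of each site and in windows 5 kb on either side, whether or not these held a peak. Genome tiles are all 200-bp windows without unknown bases. By the paper's methods only uniquely aligned reads were kept. Densities and tile shares were not adjusted for bases where reads do not align uniquely, and the part of this was not tested. Sequences were searched on both strands. Python 3.11.15, NumPy 2.4.6, SciPy 1.17.1, Numba 0.67.0 and Matplotlib 3.10.9 were used. Sign-flip tests enumerated all flips, with Benjamini-Hochberg adjustment. The 4 duplicated constructs had 2 biological replicates. Alternatives were the distance limit, transcript set, class minimum, peak width and left-out lists. The steps were tested on simulated data.

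The members, gene lists and tests were chosen with earlier results of these data known. Genes and regions were named by rank: the 10 genes nearest to most far sites, up to 5 members of each list, the 5 densest windows, and the 3 farthest and 3 widest sites. OCT4-HA could not enter the duplicate overlap test, which was planned over 4 constructs and ran over 3. Planned tests of the far share itself are not reported, since the sites were selected on the values behind it.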

Additional observations from a re-analysis of the deposited data

Results flagged for a closer look

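The far and nearer sites of single duplicate lists, over all sites of 1 to 4 constructs, were compared for 3 constructs, and 3 differences between constructs had both lists of 1 construct on one side of 0 and both lists of another on the other. These differences were not tested. The AP-1 sequence was less frequent at far sites in both FOXA1-HA lists (mean -1.62 percentage points) and more frequent in both SOX2-HA lists (mean 1.33), a difference of -2.95. The own consensus was less frequent at far sites in both BHLHB8-HA lists (mean -2.66) and more frequent in both SOX2-HA lists (mean 2.85), a difference of -5.51. Against SOX2-HA, the FOXA1-HA lists (mean -5.92) differed by -8.76, and the 2 FOXA1-HA values were -1.10 and -10.7, the latter from 75 far sites. Some of these directions depended on the set of sites. At sites held by the construct alone, AP-1 was more frequent at far sites of FOXA1-HA (19.9% against 14.2%, a difference of 5.68) and the own consensus was less frequent at far sites of SOX2-HA (63.3% against 65.2%, a difference of -1.89), both opposite to the list values. BHLHB8-HA (-2.39) and FOXA1-HA (-2.09) kept their sign for the own consensus, as did SOX2-HA for AP-1 (1.02).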

How the results depend on the processing

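The lower GC content of far sites held its direction and call under all 19 alternatives (-2.55 to -1.66 percentage points, highest permutation adjusted p = 0.0469). Requiring peaks of at least 300 bp, which left fewer sites and constructs, ended 4 calls: GC content above flanks (0.575), soft-masked share (3.64), width (-3.10) and clustering (-3.52). Requiring 200 sites a class ended those of GC content above flanks (1.08), soft-masked share (4.97) and width (-5.86). With starts of all transcripts, GC content above flanks (1.16) and width (-5.50) lost their calls, as did width (-5.82) at a limit of 200 kb and soft-masked share (2.78) at 50 kb. Chosen after seeing the data, leaving out TEAD1-HA and ZFP319-HA (3.33) or SOX2-YPET OCT4-HA (3.55) ended the soft-masked call. The soft-masked share relative to flanks, never called, changed sign with nearer sites at 10 to 100 kb (0.0131), starts of all transcripts (0.352), 200 sites a class (0.548), peaks of at least 300 bp (0.756) and single lists left out (-0.542 to 0.183), and the AP-1 difference did at 50 kb (0.183). Beyond fewer sites or constructs, the cause was not tested. The number of far sites was 60250 at 50 kb, 21857 at 200 kb, 8036 with starts of all transcripts, 16962 with peaks of at least 300 bp, and 32594 to 38783 with a list left out.

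With the replicate number as a replicate block, the mean difference in far share between duplicates was 0.407 percentage points. The lists share only a number. Over all peaks of a list it was 2.44. With 1 list for 20 constructs and no read numbers, the error between libraries and the part of depth in the number of far sites cannot be given.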
